A study of Mus musculus with 8 samples.

Results

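Immunoglobulin and B cell transcripts are described here in dendritic cells, a cell type that does not make antibody. The genes are 9: Igkv4-72, Ighg3, Jchain, Mzb1, Pou2af1, Cd79a, Cd79b, Ms4a1 and Pax5, of 22180 genes measured. Each gene was read from a probe set whose platform annotation names that gene alone, and where a gene had several such sets, from the one with the highest mean over all 8 arrays. The genes were picked with the log2 difference between the genotypes in these same arrays known, with Igkv4-72 among the largest rises. Which of the others were selected on that difference is not known, so all 9 are treated as if they were. Their differences are therefore a description and are given without p-values. Where one of the 9 is said to pass or miss limma's threshold, that too describes values known at the choice and supports nothing.

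The series measured CD103+ CD11b+ conventional dendritic cells (cDC), sorted by flow cytometry from the mesenteric lymph nodes of male C57BL6 mice aged 8 weeks on control chow. The hBcl-2 transgenic group has 4 arrays, from mice in which human Bcl-2, a blocker of apoptosis, is driven by the promoter of CD11c, an integrin of dendritic cells. The wild-type group has 4 arrays from control littermates. Each array holds material pooled from 2 to 3 samples of one genotype, n = 4 pools per group throughout, and the labels do not say which animals entered which pool, so the errors measure the spread between these pools. The CD11c promoter is known to be active in dendritic cells and also in some other immune cells, and the array's mouse probes do not check the human transgene.

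In a B cell, a rearranged variable segment is joined to a constant region to give the heavy chain, and the light chain is built likewise from a kappa or lambda segment. The antibody sits on the B cell surface with the signalling chains CD79A and CD79B. After the cell has become a plasma cell, the antibody is secreted in large amounts, and as IgM or IgA it is joined into polymers by the J chain. PAX5 holds the B cell identity and is switched off in plasma cells, so a B cell and a plasma cell differ in which of these transcripts they carry. Some of the genes are not limited to the B lineage: Jchain, Mzb1 and Cd79b are also known from plasmacytoid dendritic cells.

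The values are log2 expression levels on arrays made alike between samples, with a median over probe sets of 5.04 to 5.15. Levels below 6 are called dim here, because signal is hard to tell from background there and the size of a fold is then uncertain. Transgenic replicate 4 resembled its group least: its mean correlation across genes with the other transgenic arrays was 0.974. The other transgenic arrays had 0.980 to 0.983, and the wild-type arrays had 0.986 to 0.988. Of the cDC identity genes, Ccr7, H2-Ab1, H2-Aa and Flt3 were at 10.74 to 13.06 in transgenic and 11.11 to 13.00 in wild-type arrays. The mean level over the 12 cDC identity genes was 9.42 to 9.82 on transgenic and 9.61 to 9.73 on wild-type arrays. Of the 12 differences, 5 were positive and 7 negative, and the lowest statistic was that of Zbtb46. Its log2 difference was -0.42 (SE 0.16, limma adjusted p = 0.283), with 3 of the 4 transgenic arrays below every wild-type array. Of the 12, 1 passed the test, where 1.69% of all genes did. It was Kit, a growth factor receptor gene, which rose (log2 difference 0.92, SE 0.13, limma adjusted p = 0.0100). Flt3, the receptor for the growth factor of dendritic cells, and H2-Ab1, an MHC class II chain, were lower on all 4 transgenic arrays (log2 differences -0.37 and -0.25) and did not pass. Of all genes, 4.94% were lower on all 4. Both integrin genes behind the sort were dim: Itgae, which encodes CD103, averaged 5.40 in transgenic and 5.66 in wild-type arrays, and Itgam, which encodes CD11b, averaged 5.58 and 5.57.

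Both immunoglobulin genes were higher in transgenic cDC, on every array. Igkv4-72, a variable segment of the kappa light chain, was at 7.51, 7.38, 6.43 and 8.90 on transgenic arrays 1 to 4, and at 4.69, 4.95, 4.65 and 5.11 on wild-type arrays 1 to 4. The wild-type pools were dim and close together, whereas the transgenic pools were spread widely, with replicate 4 the highest and replicate 3 the lowest. The means were 7.55 ± 1.02 in transgenic and 4.85 ± 0.22 in wild-type arrays (SD, n = 4 each), a log2 difference of 2.70 (SE 0.41, 95% interval 1.80 to 3.60) or 6.51-fold. Without transgenic replicate 4 the difference was 2.25 for Igkv4-72.

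Ighg3, the constant region of IgG3, was at 10.08, 9.36, 9.68 and 8.36 on transgenic arrays and at 8.12, 6.31, 6.40 and 8.29 on wild-type arrays. The groups did not overlap, but by only a small margin: transgenic replicate 4 lay just above wild-type replicates 1 and 4, while wild-type replicates 2 and 3 lay far below. The means were 9.37 ± 0.73 in transgenic and 7.28 ± 1.07 in wild-type arrays (SD, n = 4 each), a log2 difference of 2.09 (SE 0.50, 95% interval 0.97 to 3.21), and 2.43 without transgenic replicate 4. The order of the transgenic arrays was thus not that of Igkv4-72, whose highest pool, replicate 4, was the lowest here. A second, dim probe set that names Ighg3 alone gave 3.79 ± 0.89 in transgenic and 3.82 ± 0.42 in wild-type arrays (SD, n = 4 each), so the probe sets of this gene disagree.

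**Figure D1:**
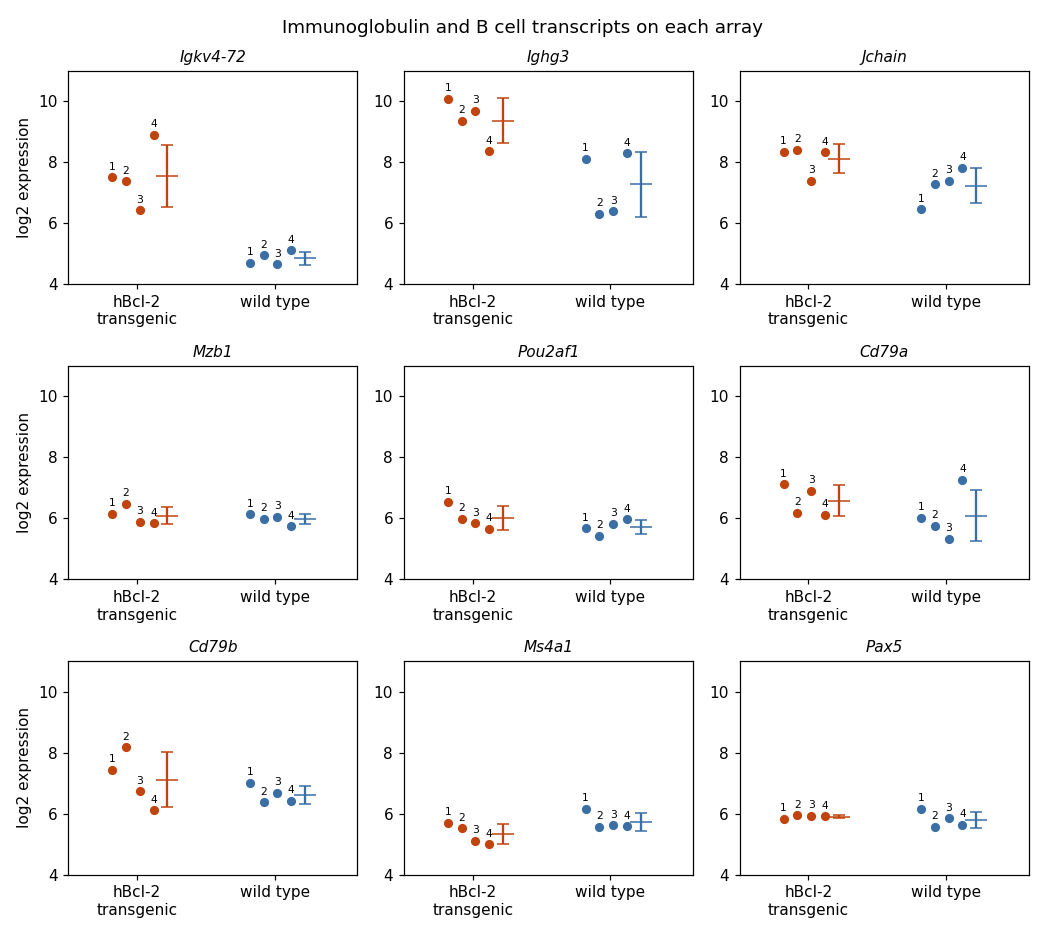
Log2 expression of the 9 genes on each array, with hBcl-2 transgenic arrays in orange on the left and wild-type arrays in blue on the right of each panel. Points are arrays with their replicate numbers, and bars show the mean and SD (n = 4). The groups separate for Igkv4-72 and Ighg3, and overlap in the other 7 panels.

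The genes of antibody assembly differed from each other. Jchain, which joins IgM and IgA into polymers, was at 8.34, 8.41, 7.40 and 8.33 on transgenic arrays and at 6.46, 7.27, 7.40 and 7.82 on wild-type arrays. Transgenic replicates 1, 2 and 4 exceeded the whole wild-type range, and replicate 3 lay inside it. The means were 8.12 ± 0.48 in transgenic and 7.24 ± 0.57 in wild-type arrays (SD, n = 4 each), a log2 difference of 0.88 (SE 0.30, 95% interval 0.22 to 1.54). Mzb1, a chaperone of the endoplasmic reticulum that helps antibody to be assembled and secreted, was at 6.15, 6.48, 5.89 and 5.85 on transgenic arrays and at 6.14, 5.98, 6.05 and 5.74 on wild-type arrays. The groups of Mzb1 lay over each other, with a log2 difference of 0.12 (SE 0.16, 95% interval -0.23 to 0.47). Without transgenic replicate 2 that difference was -0.013, and without transgenic replicate 4 it was 0.199. For Jchain it was 0.81 without transgenic replicate 4.

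The 5 genes of B cell identity and receptor signalling overlapped between the groups, as most genes did: the groups were apart for 8.94% of all genes. Cd79a, which encodes a signalling chain of the B cell receptor, was at 7.12, 6.19, 6.91 and 6.11 on transgenic arrays and at 6.02, 5.75, 5.33 and 7.26 on wild-type arrays. Its highest array of all was wild-type replicate 4, and 0 of the transgenic arrays lay above the wild-type range (log2 difference 0.50, SE 0.38, 95% interval -0.35 to 1.34). Cd79b, the other chain, was at 7.43, 8.18, 6.74 and 6.11 on transgenic arrays and at 7.02, 6.36, 6.68 and 6.42 on wild-type arrays. Transgenic replicates 1 and 2 lay above the wild-type range and replicate 4 below it (log2 difference 0.49, SE 0.37, 95% interval -0.33 to 1.31). The log2 difference of Cd79b was 0.14 without transgenic replicate 2 and 0.83 without transgenic replicate 4. That of Cd79a was 0.65 without transgenic replicate 4, 0.89 without wild-type replicate 4 and 0.24 without wild-type replicate 3.

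Pou2af1, a coactivator of octamer-binding factors at immunoglobulin promoters, was at 6.55, 5.99, 5.84 and 5.65 on transgenic arrays and at 5.68, 5.43, 5.83 and 5.97 on wild-type arrays (log2 difference 0.28, SE 0.19, 95% interval -0.15 to 0.71). Pax5, the transcription factor that fixes B cell identity, was at 5.84, 5.94, 5.92 and 5.91 on transgenic arrays and at 6.15, 5.57, 5.84 and 5.63 on wild-type arrays (0.10, SE 0.14, 95% interval -0.20 to 0.40). Ms4a1, which encodes the B cell surface protein CD20, ran the other way. It was at 5.69, 5.51, 5.11 and 4.99 on transgenic arrays and at 6.16, 5.56, 5.62 and 5.59 on wild-type arrays (log2 difference -0.40, SE 0.19, 95% interval -0.82 to 0.02). For Ms4a1, 3 of the 4 transgenic arrays lay below every wild-type array, and all 3 of these genes had means below 6 in both groups, apart from 6.01 for Pou2af1 in transgenic arrays. Without transgenic replicate 4 the log2 differences were 0.40 for Pou2af1, 0.10 for Pax5 and -0.29 for Ms4a1. Other arrays mattered too: Pou2af1 was at 0.10 without transgenic replicate 1 and 0.18 without wild-type replicate 2, and Ms4a1 at -0.26 without wild-type replicate 1. Pax5 was at 0.22 without wild-type replicate 1, 0.029 without wild-type replicate 2 and 0.047 without wild-type replicate 4.

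Across all genes limma's test with Benjamini-Hochberg adjustment called 1.69% at an adjusted p below 0.05, of which 0.839% were higher and 0.848% lower in transgenic arrays. Of the 9 genes, 1 was among the higher calls, Igkv4-72, and 8 were not past the threshold. Groups with all 4 transgenic arrays above all 4 wild-type arrays made up 4.00% of all genes and 2 of the 9. The opposite arrangement made up 4.94% of all genes and 0 of the 9, so that the genotypes were apart in one direction or the other for 8.94% of all genes. As the genes were chosen with this contrast known, nothing is read from these counts. The median log2 difference was 0.49 over the 9 genes and -0.00 over all genes. Because the samples are pools of sorted cells, more cells of another type and more RNA per cell cannot be told apart in any of these values.

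Other immunoglobulin genes, taken by their symbols and not by their values, mostly lay higher in transgenic arrays, but 1 passed the test. Apart from Igkv4-72 and Ighg3, 19 were measured. Of these, 1 rose, 0 fell and 18 did not pass, 17 had a positive and 2 a negative difference, and the median log2 difference was 0.58. Of the 19, 12 averaged below 6. The 7 averaging at least 6 had a median of 0.34, with 0 called in the fit limited to genes at that level. Over all genes 0.839% rose, 49.7% of differences were positive and the median was -0.00. Without transgenic replicate 2 the median of the 19 was 0.31. At an unadjusted p below 0.05 there were 4 of the 19, all of them higher and averaging below 6. Over all genes 2919 of the 22180 reached that level, and 1455 of these were higher. The gene that rose was Igkv4-59, another kappa variable segment, which was at 4.47, 4.69, 4.97 and 4.24 on transgenic arrays and at 3.12, 2.96, 2.99 and 3.04 on wild-type arrays. Its groups lay well apart, with a log2 difference of 1.56 (SE 0.15; limma adjusted p = 0.00192), although both groups were dim. Igkv4-70 had a difference of nearly the same size, but its transgenic arrays, at 7.16, 5.85, 4.89 and 5.99, overlapped the wild-type arrays, at 3.92, 4.57, 5.01 and 4.29 (log2 difference 1.52, SE 0.41; limma adjusted p = 0.102). Leaving out transgenic replicate 3 brought Igkv4-70 past the threshold (log2 difference 1.89; limma adjusted p = 0.0379). Igkv6-23 was the other segment whose groups did not overlap, at 3.51 ± 0.53 in transgenic and 2.76 ± 0.23 in wild-type arrays (SD, n = 4 each; limma adjusted p = 0.169).

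By the probe set used for each gene, the 3 kappa segments with the largest differences belong to the Igkv4 family. Of these, Igkv4-72 was selected on its difference and does not count towards a family pattern. In the row of 162 kappa variable segments of the mouse gene table, Igkv4-70 follows Igkv4-72 by 3 places and Igkv4-59 by 15. The other measured member of that family, Igkv4-91, stands 24 places before Igkv4-72. It was at 6.69 ± 1.58 in transgenic and 6.28 ± 1.44 in wild-type arrays (SD, n = 4 each), a log2 difference of 0.42 (SE 0.82; limma adjusted p = 0.899). A bright probe set naming both Igkv9-124 and Igkv4-70 was at 11.23 ± 1.01 in transgenic and 11.27 ± 0.62 in wild-type arrays (SD, n = 4 each). Its log2 difference was -0.03, and the set naming Igkv4-53, Igkj1 and Igkv6-23 had 0.47. Segments of one family are alike in sequence, so their probes can bind each other's transcripts and the value of a single segment is uncertain.

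**Figure D2:**
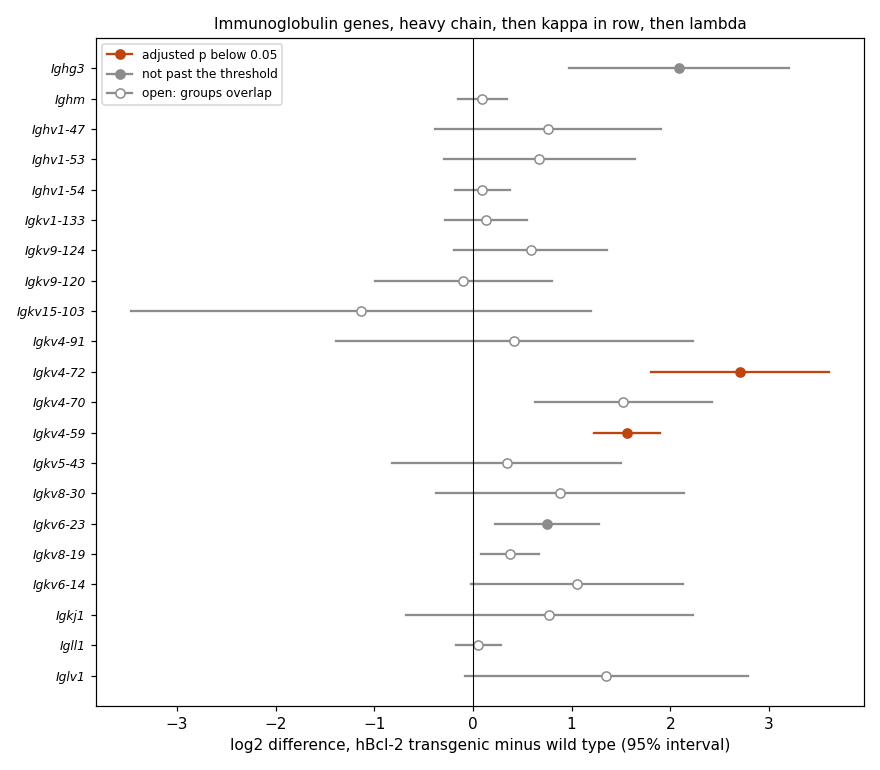
Log2 difference, hBcl-2 transgenic minus wild type, with its 95% interval from limma for 21 immunoglobulin genes, listed as heavy chain genes, kappa variable segments in their order along the locus, and the remaining light chain genes. Orange marks genes with an adjusted p below 0.05, grey the others, and open points genes whose groups overlap. For Igkv4-72 and Ighg3, treated as selected on this difference, the colour is a description. Igkv4-72, Igkv4-70 and Igkv4-59 lie furthest right among the kappa segments, and Igkv15-103 furthest left.

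Probe sets given to the same immunoglobulin gene differed in what they showed. Ighm, the constant region of IgM, was read from the brightest of its 7 probe sets, at 10.98 ± 0.13 in transgenic and 10.88 ± 0.12 in wild-type arrays (SD, n = 4 each; log2 difference 0.10, SE 0.11; limma adjusted p = 0.804). The other 6 sets that the annotation gives to Ighm had log2 differences of 0.21 to 1.23, and none passed when each probe set was tested on its own. Igkv5-43 was at 10.65 ± 1.14 in transgenic and 10.31 ± 0.74 in wild-type arrays (SD, n = 4 each; log2 difference 0.34, SE 0.52; limma adjusted p = 0.861), and its 2 dimmer probe sets had differences of 1.20 and 2.50. The set with 2.50 was at 7.00, 7.23 and 6.94 on transgenic replicates 1 to 3 and at 3.20 on replicate 4, against 3.35 to 3.82 on wild-type arrays, so replicate 4 lay below the wild-type range.

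Including probe sets that name several genes, 35 sets named an immunoglobulin gene. Tested each on its own, 2 of them rose and 0 fell, where 0.410% of all 34390 probe sets rose and 0.846% passed in either direction, and the 2 were those of Igkv4-72 and Igkv4-59. All 4 transgenic arrays lay above all wild-type arrays for 4 of the 35, against 3.57% of all probe sets. These counts include Igkv4-72 and Ighg3, which are treated as selected on this difference. Among the 31 sets that name none of the 9 genes, 1 rose, 0 fell and 2 had all transgenic above all wild-type arrays. The 5 sets naming several genes had log2 differences of -0.03 to 1.66, and 0 of the 5 passed in limma.

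Immunoglobulin transcripts also varied between pools of the same genotype. Among the 30 probe sets naming 1 immunoglobulin gene, the wild-type arrays spanned more than 1 log2 unit for 12 sets and the transgenic arrays for 23. Over all probe sets these spans occurred in 5.96% for the wild-type and 11.2% for the transgenic arrays. The widest case was Igkv15-103, at 8.60, 7.25, 7.06 and 6.35 on transgenic arrays and at 6.19, 11.27, 6.32 and 10.01 on wild-type arrays. Wild-type replicates 2 and 4 stood high for it and the other wild-type pools low, so its log2 difference of -1.13 (SE 1.05) rests on those pools. Igkv9-120, at 9.23 ± 0.67 in transgenic and 9.33 ± 0.79 in wild-type arrays (SD, n = 4 each), was the other segment with a negative difference.

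Other genes of the B lineage overlapped between the genotypes, and most had a negative difference. Apart from the genes already described, 12 of 13 listed B lineage genes were measured. In limma 0 rose, 0 fell and 12 did not pass, and 0 of the 12 had an unadjusted p below 0.05. Their differences were positive for 3 and negative for 9, with a median of -0.13. That median was 0.01 without wild-type replicate 4, -0.04 without transgenic replicate 3, -0.07 without transgenic replicate 4, and 0.02 over the 3 of them averaging at least 6, so it has no settled sign. In 0 of the 12 the groups separated in either direction, where 8.94% of all genes did. With 12 genes, a count of 0 is near that share, so nothing is read from it. Vpreb3 had the highest statistic, at 4.72 ± 0.19 in transgenic and 4.59 ± 0.16 in wild-type arrays (SD, n = 4 each). Cxcr5, the chemokine receptor that leads B cells into follicles, was at 7.71, 7.96, 5.97 and 5.51 on transgenic arrays and at 8.16, 7.62, 7.23 and 7.28 on wild-type arrays. Transgenic replicates 3 and 4 were low and the other transgenic arrays within the wild-type range (log2 difference -0.78, SE 0.50; limma adjusted p = 0.587).

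Of the 12, 9 had a mean level below 6. The 3 that did not were Cxcr5, Tnfrsf13c, which encodes the receptor for BAFF, and Fcmr, which encodes an Fc receptor for IgM. Tnfrsf13c was at 6.92 ± 0.06 in transgenic and 6.90 ± 0.19 in wild-type arrays (SD, n = 4 each), with a 95% interval of the difference of -0.24 to 0.29. Fcmr was at 6.40 ± 0.24 in transgenic and 6.26 ± 0.31 in wild-type arrays (SD, n = 4 each), with an interval of -0.24 to 0.54. The mean level over the 12 genes was 5.41 to 5.80 on transgenic and 5.55 to 5.92 on wild-type arrays.

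**Figure D3:**
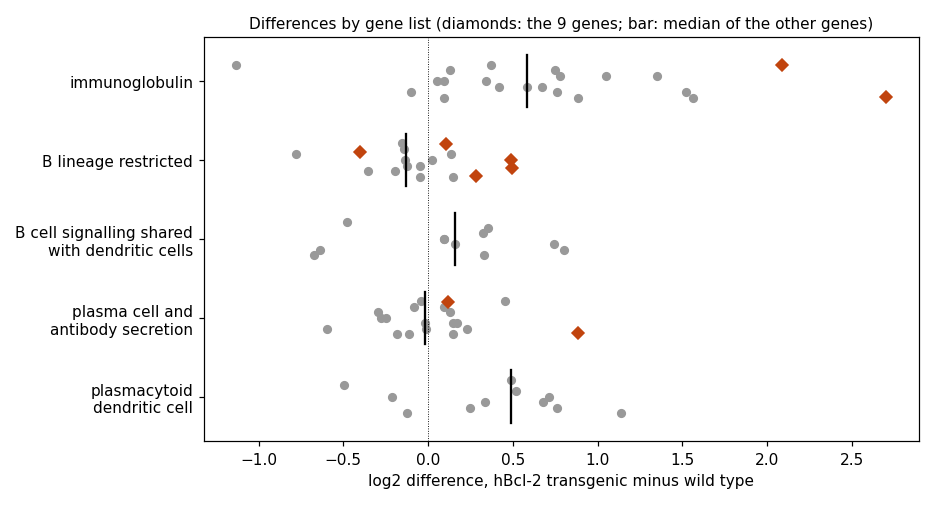
Log2 difference, hBcl-2 transgenic minus wild type, for genes of 5 lists. Grey points are single genes, black bars the median of the grey points, and orange diamonds the 9 genes placed in their list. The 19 other immunoglobulin genes have a median of 0.58 and the 12 other B lineage genes one of -0.13. Means below 6 occur in 12 of the 19 and in 9 of the 12.

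Genes of the plasma cell were also tested. All 17 listed genes other than Jchain and Mzb1 were measured, of which 0 rose, 0 fell and 17 did not pass in limma, with a median log2 difference of -0.02. At an unadjusted p below 0.05 there were 4 of the 17, of which 2 were higher and 2 lower. That level was reached by 2919 of all 22180 genes. The groups separated with transgenic arrays higher for 3 of the 17, Hsp90b1, Derl3 and Slamf7, where 4.00% of all genes did. They separated with transgenic arrays lower for Edem1 and Prdm1, where 4.94% of all genes did. Hsp90b1, a chaperone of the endoplasmic reticulum, was at 11.24 ± 0.22 in transgenic and 10.78 ± 0.17 in wild-type arrays (SD, n = 4 each; log2 difference 0.45, SE 0.14; limma adjusted p = 0.156). Derl3, which serves the degradation of misfolded proteins, was at 5.56 ± 0.12 in transgenic and 5.33 ± 0.05 in wild-type arrays (SD, n = 4 each). Prdm1, which encodes the plasma cell regulator BLIMP1 and is also expressed in dendritic cells, had the lowest statistic, at 8.14 ± 0.29 in transgenic and 8.74 ± 0.15 in wild-type arrays (SD, n = 4 each; log2 difference -0.60, SE 0.15; limma adjusted p = 0.0889). Ell2, an elongation factor gene used in antibody secretion, and Sec11c, a subunit of the signal peptidase, had log2 differences of -0.29 (SE 0.14) and -0.28 (SE 0.11) and did not pass. Plasma cell surface markers differed in level: Slamf7 was among the bright genes, at 12.66 ± 0.06 in transgenic and 12.53 ± 0.05 in wild-type arrays (SD, n = 4 each; log2 difference 0.13, SE 0.10; limma adjusted p = 0.646). The other markers named here were dim. Tnfrsf17, which encodes BCMA, was at 4.55 ± 0.13 in transgenic and 4.73 ± 0.19 in wild-type arrays, and Sdc1, which encodes CD138, was at 5.16 ± 0.52 and 5.18 ± 0.23 (SD, n = 4 each).

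Of 11 measured genes that B cells and dendritic cells both use in signalling or transcription, 1 rose, 0 fell and 10 did not pass. Of all genes, 0.839% rose and 0.848% fell. All transgenic arrays lay above all wild-type arrays for 2 of the 11 and below them for 1, where 4.00% and 4.94% of all genes did. Bcl11a, a transcription factor of B cell and plasmacytoid dendritic cell development, was at 8.28, 7.92, 8.14 and 7.86 on transgenic arrays and at 6.93, 7.59, 7.14 and 7.32 on wild-type arrays. Its groups did not overlap, and it rose by a log2 difference of 0.80 (SE 0.16; limma adjusted p = 0.0360). The call for Bcl11a was lost when transgenic replicate 1, 2 or 3 or wild-type replicate 1, 3 or 4 was left out, where the log2 difference was 0.70 to 0.85 and limma's adjusted p reached 0.108. It was lost too with arrays centred on their medians (0.78, limma adjusted p = 0.0525). Blnk, the adaptor below the B cell receptor, was at 6.69, 6.85, 5.68 and 6.00 on transgenic arrays and at 5.54, 5.40, 5.67 and 5.63 on wild-type arrays. All its transgenic arrays lay above the wild-type ones, replicate 3 narrowly (log2 difference 0.74, SE 0.23; limma adjusted p = 0.167). Spib, an ETS factor of B cells and dendritic cells, was lower on all transgenic arrays and did not pass (log2 difference -0.64, SE 0.16; limma adjusted p = 0.0791), except in the fit limited to genes averaging at least 6 (limma adjusted p = 0.0475). Pou2f2, an octamer-binding factor, had a log2 difference of -0.67 (SE 0.29; limma adjusted p = 0.354) and Syk, a kinase below antigen receptors, one of 0.16 (SE 0.15; limma adjusted p = 0.743).

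The arrays of one genotype were compared to ask whether the B lineage genes follow the immunoglobulin genes from pool to pool. With 4 arrays a group there are 12 pairs of arrays within the groups. These pairs share arrays and are not independent. Each of the 9 genes was compared with each of the others, so the highest counts are picked from many comparisons and are a description only. Cd79a put 11 of the 12 pairs in the same order as Ighg3, which 1.26% of all genes matched or exceeded, and Pou2af1 put 10 in the same order, which 4.61% matched or exceeded. The others followed Ighg3 less: Ms4a1 in 9 pairs (11.5% of all genes), Cd79b in 8 (23.6%), Mzb1 and Jchain in 7 (40.0%) and Pax5 in 6 (58.3%). Both Cd79a and Ighg3 were highest on transgenic replicate 1 and lowest on transgenic replicate 4, and highest on wild-type replicate 4. Igkv4-72 had another order: Cd79a matched it in 7 of the 12 pairs, Ighg3 and Pou2af1 in 6, Ms4a1 in 5, Cd79b and Pax5 in 4 and Mzb1 in 3, counts that 42.6% to 95.5% of all genes matched or exceeded. For Jchain the counts were 9 for Pou2af1, 7 for Ighg3, Igkv4-72 and Cd79b, 6 for Cd79a, Ms4a1 and Mzb1, and 5 for Pax5, which 10.8% to 74.1% of all genes matched or exceeded. Cd79b instead matched Mzb1 and Ms4a1 in 11 pairs each (1.15% of all genes) and Pax5 in 10 (4.35%).

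**Figure D4:**
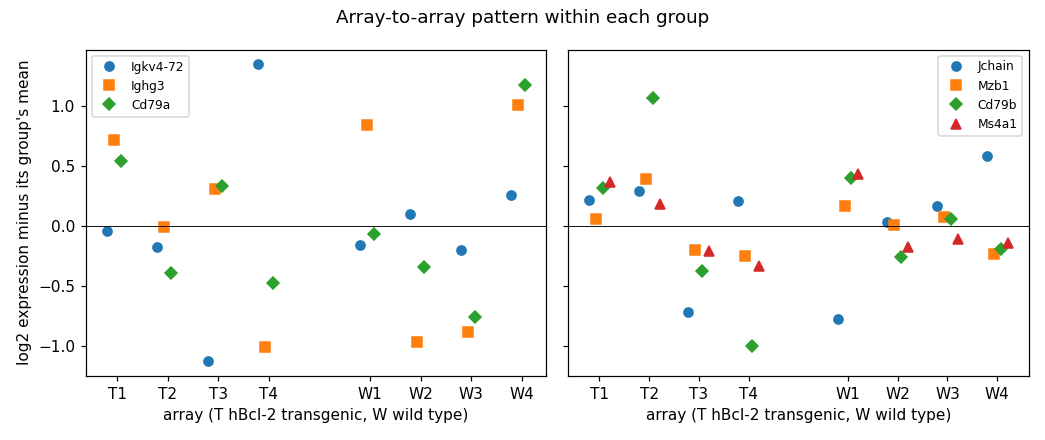
Log2 expression minus the mean of its own group for 7 of the genes on each array, hBcl-2 transgenic arrays (T1 to T4) left and wild-type arrays (W1 to W4) right. In the left panel Cd79a lies near Ighg3 on T1, T3, W3 and W4. On the other arrays they lie further apart, most so on W1 (Cd79a -0.07, Ighg3 0.84). Igkv4-72 is highest on T4, where both are low. In the right panel Cd79b, Mzb1 and Ms4a1 are all above 0 on T1, T2 and W1.

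Counted over the lists, wild-type replicate 4 was the highest wild-type array for 12 of 21 immunoglobulin genes and for 8 of 17 B lineage genes. It was the lowest for 1 gene in each list. Wild-type replicate 1 was the highest for 7 of the 17 B lineage genes and for 3 of the 21 immunoglobulin genes. Among transgenic arrays, replicate 2 was the highest for 8 of the 21 immunoglobulin genes and the lowest for 0, and replicate 3 was the lowest for 10. Replicate 1 was the highest for 6 of them. For the 17 B lineage genes, replicate 1 was the highest transgenic array for 7 and replicate 2 for 6. Replicate 4 was the lowest for 10 and replicate 3 for 3. Wild-type replicate 2 was the lowest wild-type array for 8 of the 21 and 9 of the 17. Over all 22180 genes transgenic replicate 4 was the lowest of its group for 6307, replicate 3 for 5349, and replicate 2 was the highest for 4891. Wild-type replicates 4 and 1 were the highest of theirs for 5765 and 6206. Transgenic replicate 1 was the highest for 4495 and wild-type replicate 2 the lowest for 5698. The mean over the 19 other immunoglobulin genes was 6.05, 6.40, 5.45 and 5.62 on transgenic arrays 1 to 4. Over the 12 other B lineage genes it was 5.72, 5.80, 5.41 and 5.43, in the same order. On wild-type arrays the means were 5.10, 5.38, 5.30 and 5.60, and 5.82, 5.55, 5.62 and 5.92. Both were highest on replicate 4, but the rest stood in another order. The order of the transgenic means was not particular to the B lineage. T cell genes had it too, at 5.453, 5.543, 5.362 and 5.364 on transgenic arrays 1 to 4. So did monocyte and macrophage genes, at 6.99, 7.32, 6.37 and 6.55.

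Among genes other than the 9, those with values nearest to Igkv4-72, Jchain and Cd79a were sought after the group means were removed. The nearest are not on the list of 12 other B lineage genes. With 12 listed of 22180 measured, that was likely beforehand. It therefore cannot show whether Igkv4-72, Jchain and Cd79a run with the B lineage. Likeness was the mean absolute difference of the group-centred log2 values over the 8 arrays. For Igkv4-72 the nearest 3 were Lysmd1 (0.19), Nacc2 (0.20) and Uchl3 (0.20), where the mean deviation of Igkv4-72 itself was 0.43. For Jchain they were Chchd10 (0.14), Cox6a2 (0.15) and Itgb3 (0.16), against 0.37 for Jchain itself. Cox6a2, a subunit of a mitochondrial complex, is also on the plasmacytoid dendritic cell list, at 6.66, 6.72, 5.80 and 6.50 on transgenic arrays and at 5.16, 5.96, 6.49 and 5.99 on wild-type arrays. For Cd79a they were Commd4 (0.21), Ifi208 (0.22) and Plod1 (0.24), against 0.51 for Cd79a itself.

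Some markers of other cell types also differed between the genotypes. For comparison, 0.839% of all genes rose and 0.848% fell in limma, and 4.94% were lower on all 4 transgenic arrays. Of 11 measured plasmacytoid dendritic cell genes, which overlap with B cell genes in use, 2 rose, 0 fell and 9 did not pass, and the median log2 difference was 0.49, or 0.22 without transgenic replicate 2, 0.32 without transgenic replicate 1 and 0.26 without wild-type replicate 1. Irf8 and Tcf4, which encode regulators of that cell, had log2 differences of -0.49 (SE 0.15; limma adjusted p = 0.161) and -0.21 (SE 0.18; limma adjusted p = 0.692), and Irf8 was lower on all 4 transgenic arrays. The 2 that rose were Bst2 (log2 difference 0.76, SE 0.13; limma adjusted p = 0.0204), a surface protein also induced by interferon, and the inhibitory receptor gene Lair1 (1.14, SE 0.24; limma adjusted p = 0.0469). Lair1 kept its call only where transgenic replicate 4 was the array left out (log2 difference 0.99 to 1.18 and limma adjusted p up to 0.123 without any other), and it did not pass with arrays centred on their medians (1.12, limma adjusted p = 0.0608). Bst2 lost its call without transgenic replicate 2 or 3 or wild-type replicate 1, 2 or 3 (0.71 to 0.75, limma adjusted p up to 0.0719). The mean level over the list was 7.62, 8.19, 7.15 and 7.09 on transgenic arrays and 6.85, 7.33, 7.26 and 7.14 on wild-type arrays. It was highest on transgenic replicate 2, where Cd79b and Mzb1 were also highest. This is not particular to that list. Replicate 2 had the highest transgenic mean for the other immunoglobulin, B lineage, B cell signalling, plasma cell, T cell and monocyte lists too, but not for cDC identity. Siglech, a defining marker of that cell, was at 6.29, 7.52, 5.67 and 5.86 on transgenic arrays and at 5.18, 5.85, 6.07 and 5.53 on wild-type arrays. The mean level over 8 T cell genes was 5.36 to 5.54 on transgenic and 5.22 to 5.77 on wild-type arrays. Of the 8, 2 had a positive and 6 a negative difference, with a median of -0.13. The 1 past the threshold was Cd4, which rose (log2 difference 1.18, SE 0.13, limma adjusted p = 0.00437). The lowest statistic was that of Cd8a (-0.75, SE 0.26, limma adjusted p = 0.215). The mean level over 10 monocyte and macrophage genes was 6.37 to 7.32 on transgenic and 6.05 to 6.39 on wild-type arrays. Of these, 2 rose, Adgre1 (1.29, SE 0.19; limma adjusted p = 0.0128) and Csf1r (1.16, SE 0.19; limma adjusted p = 0.0183), and the call for Csf1r was lost without wild-type replicate 1, 2 or 3 (1.09 to 1.12, limma adjusted p up to 0.0668). Lyz2, a lysozyme gene and the brightest of the 10, had a log2 difference of -0.08 (SE 0.26), and C1qa, a complement chain, was lower on all 4 transgenic arrays (-0.17, SE 0.10); neither passed. The part of any of these cells in the immunoglobulin and B cell values was not tested.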

How the data were processed

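RNA of sorted cDC was extracted, and 2.5 ng was reverse transcribed and amplified, per the labels' protocols. The authors deposited log2 values for each probe set. The submitters' processing notes name RMA and Partek without versions. RMA makes the arrays' distributions alike and can compress differences of bright probe sets. A genome build was not given in the sources used here. Coordinates are therefore left out. Of the value columns, 0 were unused.

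Of 34390 probe sets, 23521 name 1 gene in the platform annotation, 1814 several and 9055 none. Of the first kind, 23328 were found in a RefSeq gene table (GRCm38.p6), used for symbols and the order of kappa segments. For 1082 genes with several sets the one with the highest mean was used, which left 22180 genes. They were fitted with limma 3.58.1 (R 4.3.3; lmFit, eBayes), transgenic minus wild type, with Benjamini-Hochberg adjustment over all genes. Errors are the SD over arrays or the moderated SE, and intervals are 95%. Arrays have no read depth, and 4 arrays a group limit the precision. The fit was tested on simulated data. Alternatives were a trend in eBayes, filters on dim genes, other scalings, the mean over probe sets, array weights, a replicate block and leaving out each array.

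The members and lists were chosen with earlier results of these data known. The rule for named genes took, of each list, the genes past the threshold or the 2 highest and 2 lowest by statistic and the 3 with the highest mean, and the 3 genes most like Igkv4-72, Jchain and Cd79a, without predicted genes, small RNAs, and receptors of the olfactory or vomeronasal kind. Not every gene it took is described. Igkv4-91, Igkv6-23, Edem1, Tnfrsf17, Sdc1, Siglech, Itgae and Itgam were named after their values were seen. Replicate numbers are shared between the groups, but deviations of same-numbered arrays correlated at -0.03, -0.03, 0.08 and -0.02 across genes, so they were not taken as pairs. Plots used matplotlib 3.10.9 (Python 3.11.15).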

Additional observations from a re-analysis of the deposited data

Results flagged for a closer look

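Jchain was at 7.40 on transgenic replicate 3, far from the 8.33 to 8.41 of the other transgenic arrays. Ms4a1 was at 6.163 on wild-type replicate 1, far from the 5.56 to 5.62 of the other wild-type arrays. In both, the gap to the nearest array exceeds Dixon's 95% critical value for 4 samples. Of 18 groups tested, 2 were picked out in this way, and about 1 in 20 would be by chance.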

How the results depend on the processing

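The number of genes past the threshold was 374 (limma). With the replicate number as a block it was 187, with 1 of the 9 members and 1 other immunoglobulin segment still called, as without it, and no other call among the members changed; Bcl11a, Bst2 and Csf1r lost theirs under the block (adjusted p = 0.104, 0.0642 and 0.0645 in limma). The numbers are shared labels only. Without each array in turn the number of genes ran from 106 to 379 (106 without wild-type replicate 1, 115 without 2, 123 without 3 and 133 without 4; 235, 187 and 246 without transgenic replicates 1, 2 and 3). Members called ran from 0 to 2: Igkv4-72 (log2 difference 2.65) did not pass without wild-type replicate 1, and Ighg3 (2.43) passed without transgenic replicate 4. Other immunoglobulin segments called ran from 1 to 2 (2 without transgenic replicate 3, where Igkv4-70 passed). When the fit held just genes averaging 6 or more, 2 members passed and 0 other segments, as Igkv4-59 was not in that fit. A filter at the median gene gave 2 and 0 likewise. With array weights 2 members passed. Beside Igkv4-72, the second was Ighg3 each time (log2 difference 2.09, 2.09 and 2.43). With the mean over its probe sets the difference of Ighg3 was 1.03. The difference of Mzb1 ran from -0.0132 (without transgenic replicate 2) to 0.199 (without transgenic replicate 4). With every probe set on its own, added after seeing the data, 291 passed. The other plasma cell genes and the other B lineage genes had 0 calls in each fit with 1 value per gene. The arrays carry no detection calls, so how far the dim genes lie above background is unknown.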
